A study of Mus musculus with 6 samples.

Results

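The common gamma chain, encoded by Il2rg, is a cell surface receptor subunit that pairs with private chains to bind interleukin-2, interleukin-4, interleukin-7, interleukin-9, interleukin-15 and interleukin-21. Messenger RNA of 9 genes of this receptor family was examined in peritoneal cavity (PC) B1a cells, 9 of the 36163 gene names on the array. They are Il2ra, Il2rb, Il2rg, Il4ra, Il7r, Il9r, Il15ra and Il21r, with Il13ra1, which pairs with the interleukin-4 receptor alpha chain in place of the gamma chain. They were taken by name, and each of their 12 probes, single-stranded DNA oligonucleotides of 60 bases printed as 1 spot each, was read on all 6 arrays.

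B1a cells are a self-renewing B cell population of the body cavities that secretes natural antibody. The study compared sorted B1a cells from the PC of p40-/-IL-2Rα-/- animals (knockout, 3 arrays) with those of their p40-/-IL-2Rα+/- littermates (control, 3 arrays). All mice were females of 7 weeks on the C57Bl/6 background, and the cells were sorted as B cells positive for CD11b and CD5. Both genotypes lacked p40, the subunit shared by interleukin-12 and interleukin-23, and the controls carried 1 disrupted copy of Il2ra, so neither group was wild type. Each sample pooled at least 3 mice per the submitters, and p-values measure the spread between the 3 pools of a genotype.

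In these receptors the private chain sets which cytokine is bound, and the gamma chain carries the Janus kinase JAK3 while the partner chain carries JAK1. The kinases phosphorylate STAT proteins, mainly STAT5 below interleukin-2, interleukin-7, interleukin-9 and interleukin-15, STAT6 below interleukin-4 and STAT3 below interleukin-21. The interleukin-2 receptor alpha chain (CD25, encoded by Il2ra) does not signal, but joins the beta chain (Il2rb) and the gamma chain to make the high-affinity receptor, and the beta and gamma chains are shared with interleukin-15. In mice, loss of CD25 removes interleukin-2 signals that regulatory T cells need and causes systemic autoimmunity.

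The part of the transcript that each probe reads bears on every value below. The first 30 bases of the probes are shown for Il2ra and Il2rb, whose difference between genotypes was at least 2-fold, and for Il9r and Il4ra, whose paired probes gave unlike differences. They are written 5′ to 3′ in lower case, with no base marked, and the number after the gene is the base of its RefSeq transcript at which the array design places the probe.
Il2ra 4350: gtggcttctgtttgatctctctcaatgata
Il2rb 2506: gtctattctggggtgggtttttctgtgaag
Il9r 1524: gacacagtctccgcgtatctctgctaggtg
Il9r 3021: aactgcatgcagcattgtgagctcagagct
Il4ra 466: atcccgaggaacagtgccagcactgtgtgt
Il4ra 5027: acctgttgggaattccaaccctcaccagtc
In mm9, the Il2ra probe lies at chr2:11614744-11614803 on the plus strand and the Il2rb probe at chr15:78311109-78311168 on the minus strand. The Il9r probes lie at chr11:32090499-32090558 and chr11:32089002-32089061 on the minus strand, and the Il4ra probes at chr7:132712550-132712609 and chr7:132722922-132722981 on the plus strand. The genes' exons and untranslated regions in that build were not analysed here.

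The arrays of the 2 genotypes differed in brightness. The 75th percentile of the processed signal, the intensity after the scanner software had subtracted background, was 252 to 272 on the control arrays and 66.5 to 162 on the knockout arrays. Between 47.2% and 50.6% of spots were well above background on the control arrays and between 39.7% and 45.9% on the knockout arrays. All 6 arrays sat on 1 slide read in 1 scan. Values below are therefore log2 signals relative to the 75th percentile of their own array, and brightness and genotype cannot be told apart. The 7 B cell markers examined, Ms4a1, Cd79a and Cd79b among them, and the 10 B1a markers, Cd5 and Itgam (CD11b) among them, stood well above background on each array. The summed log2 level of the B1a markers was 9.09 to 9.25 in the control and 8.80 to 8.94 in the knockout, with 7 of the 10 lower. Without Anxa2, which differed by -0.77, the sum was 8.49 to 8.71 in the control and 8.47 to 8.49 in the knockout, and of the other 9 markers Ctla4 was lower without overlap, by a log2 difference of -0.44, while Itgam and Bhlhe41 were higher without overlap, by 0.79 and 0.55. The sum of the plasma cell markers was 6.10 to 6.24 in the control and 5.54 to 5.89 in the knockout, with the 5 tested lower. Of these, Sdc1 was tested only through the control arrays. Most of the sum was Xbp1 and Irf4, the markers with the highest means, which differed by -0.52 and -0.30. The part of these shifts in the receptor values was not tested.

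Of the 9 genes, 7 could be tested, through 10 of the 12 probes, because a probe of theirs stood well above background throughout at least 1 genotype. On the probe with the highest mean, 4 were higher and 3 lower in the knockout, with a median log2 difference of 0.19, against -0.12 over all 18254 genes tested, of which 39.8% were higher. None of the 7 had an adjusted p under 0.05 in limma, a threshold that 0.0383% of all genes passed, and 3 had an unadjusted p under 0.05, as did 25.1% of all genes. Il2ra and Il2rb met the study's thresholds, a 2-fold difference and an unadjusted p no higher than 0.05, here with the p of limma. Of all genes, 3.53% met them (2.26% higher, as Il2rb was, and 1.27% lower, as Il2ra was). The study analysed its own log2 values in Genespring, so its counts need not match. Of the genes that met them here, 64.0% were higher, against 44.6% with the log2 values that the authors deposited. The values of the 2 genotypes did not overlap for 4 of the 7, Il2ra, Il2rb, Il9r and Il21r, compared with 36.3% of all genes. The last 3 were higher in the knockout, as were 14.7% of all genes without overlap, and Il2ra was lower, as were 21.6%. Without any scaling between arrays, where the median gene stood at -1.34, Il9r (-0.57), Il15ra (-1.04) and Il21r (-0.72) were lower in the knockout. In sorted cells measured in bulk, fewer cells of a type and less RNA per cell cannot be told apart. The plot of every probe by array shows these values.

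**Figure D1:**
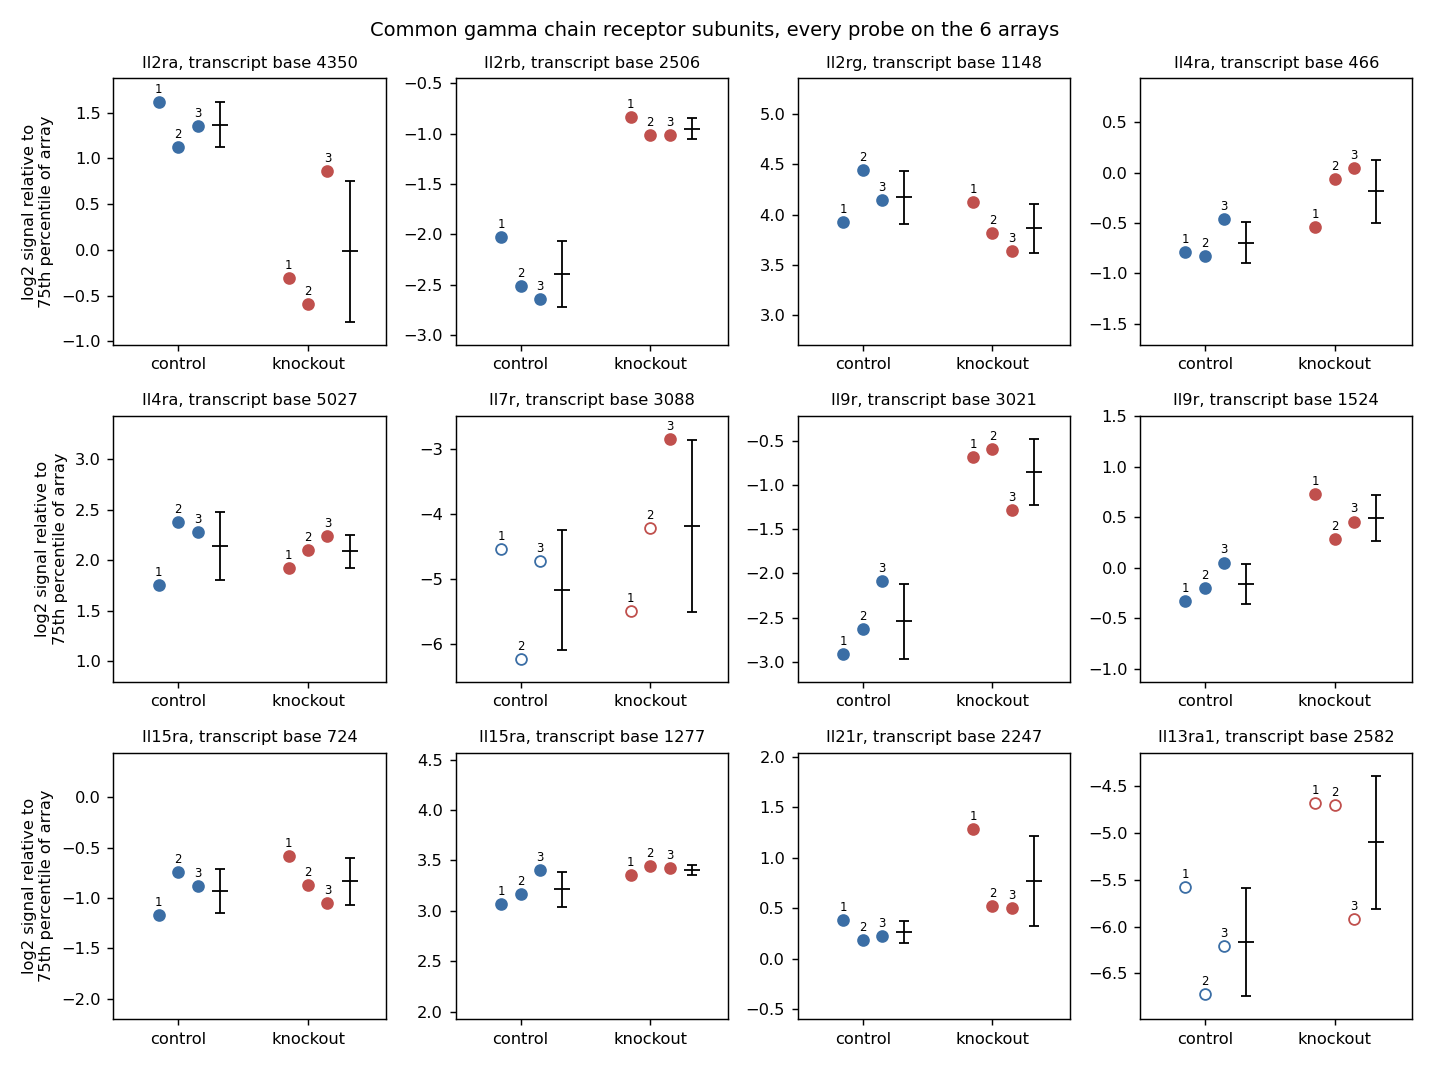
Log2 signal relative to the 75th percentile of the array (vertical axis, whose range differs between panels) for each of the 12 probes, with control arrays in blue, knockout arrays in red, replicate numbers beside the points and the mean ± SD of 3 arrays at the right of each group. Open points were not well above background, as for Il13ra1 throughout and for Il7r except on knockout 3, and the Il2ra point of knockout 3 sits nearest to the controls.

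Il2ra, the gene disrupted in these mice, gave a lower signal in the knockout. Its relative log2 signal was 1.62, 1.13 and 1.35 on control arrays 1 to 3, and -0.31, -0.59 and 0.86 on knockout arrays 1 to 3. The 3 knockout arrays lay below the 3 controls, but knockout 3 lay much closer to the controls than to the other two knockout arrays. The means were -0.01 ± 0.77 (SD, n = 3) and 1.37 ± 0.25 (SD, n = 3), a log2 difference of -1.38 (95% interval -2.25 to -0.51), or 2.60-fold lower, with an adjusted p of 0.122 in limma. Ranked among all spots of its own array, the Il2ra spot stood at percentiles 83.0, 80.6 and 81.6 in the controls and 73.4, 71.5 and 79.6 in the knockouts. Il2ra was thus well above background on each knockout array.

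This probe cannot check the genotype. It starts at base 4350 of the transcript, far along the message, the sources used here do not state which part of the gene the mutation removes, and a message that retains its 3′ end would still bind. All 3 reading frames of the probe's sequence contain a stop codon. Without knockout 3, the log2 difference was -1.82 (adjusted p = 0.0382 in limma, with the remaining 2 knockout arrays), and it was -1.09 without knockout 2. Over all 19 alternative settings the adjusted p of Il2ra ranged from 0.00513 to 0.342.

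Il2rb, the beta chain that signals for both interleukin-2 and interleukin-15, had the lowest p of the 7 tested genes and was higher in the knockout. Its relative log2 signal was -2.02, -2.51 and -2.64 in the control pools and -0.83, -1.01 and -1.02 in the knockout pools. All knockout arrays lay above all controls, and they lay close together. The means were -0.95 ± 0.11 (SD, n = 3) and -2.39 ± 0.32 (SD, n = 3), a log2 difference of 1.44 (95% interval 0.98 to 1.89), or 2.71-fold higher, with an adjusted p of 0.0654 in limma. Over 19 alternative settings the adjusted p ranged from 0.00492 to 0.283 and passed 0.05 in 4. With normexp, a model-based background correction, Il2rb differed by 0.58 with quantile scaling and by 0.95 with the 75th percentile, both under 2-fold. In the main setting, Il2rb ranked 33 of 18254 genes by the unadjusted p of limma, and 1.09% of genes had a larger difference in either direction.

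The spot is dim, and its value rests on how background is corrected and how the arrays are scaled. Its processed signal was 64.9, 44.3 and 43.7 in the 3 controls and 73.6, 33.0 and 79.9 in the 3 knockouts, each with a spot error of 10.5% to 13.1% from the scanner software. Before scaling, the groups therefore overlapped, with a log2 difference of 0.21, while the median gene stood 1.34 lower on that scale in the knockout. By rank, which no common factor changes, the spot stood at percentiles 64.6, 61.6 and 60.8 in the controls and 70.5, 68.9 and 69.7 in the knockouts. In that ranking the groups did not overlap.

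**Figure D2:**
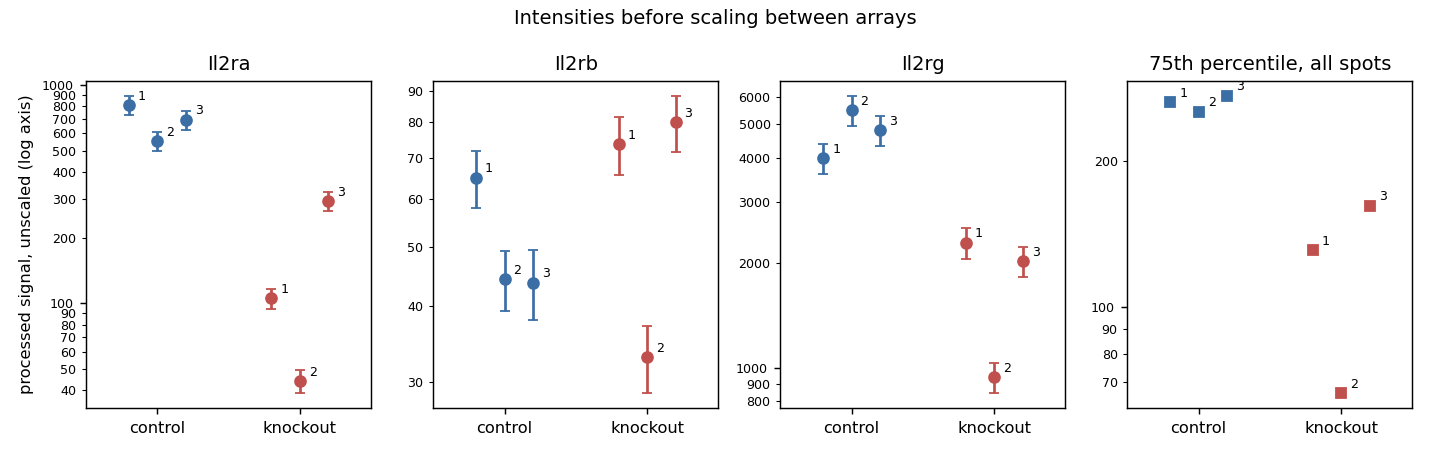
Processed signal before any scaling between arrays (vertical log axes with their own ranges) for the Il2ra, Il2rb and Il2rg probes, with the spot error of the scanner software as bars, and the 75th percentile of all spots as squares. The 75th percentile and the Il2rg signal are lower on each knockout array than on each control array, and the Il2rb signal overlaps between genotypes.

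Il2rg, the common chain, showed no difference that passed the test. Its relative log2 signal was 3.92, 4.44 and 4.15 in the control pools and 4.13, 3.82 and 3.64 in the knockout pools. The groups overlapped, knockout 1 lying within the range of the controls. The log2 difference was -0.31 (95% interval -0.77 to 0.16), with an adjusted p of 0.332 in limma. The interval included 0 and excluded a 2-fold change. Without any scaling between arrays, Il2rg differed by -1.54 without overlap, where the median gene stood at -1.34. With normexp, a model-based background correction, and the 75th percentile, the difference was -0.59 (adjusted p = 0.0305 in limma), and with quantile scaling it was -0.10, and the adjusted p ranged from 0.0305 to 0.809 over the 19 alternatives. Its probe reads chrX:98460130-98460189 on the minus strand, from base 1148 of the transcript.

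Because a receptor is assembled from a private chain and the common chain, each private chain was also expressed relative to Il2rg on the same array, a log2 difference that a single scaling factor per array cannot change. This measure was chosen after the data were seen, and 6 genes were compared in this way. For Il2rb, the value was -5.94, -6.95 and -6.78 in the 3 controls and -4.96, -4.83 and -4.66 in the 3 knockouts. The groups did not overlap, the difference of 1.75 corresponded to 3.35-fold, and a two-sided exact permutation test gave p = 0.1 (0.2 adjusted over the 6 comparisons). With 3 arrays against 3, 0.1 is the smallest p that test can give.

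Il9r and Il21r were also higher relative to Il2rg in the knockout, by 0.96 and 0.81, without overlap (exact permutation p = 0.1 for each, 0.2 adjusted). Il15ra differed by 0.50 (exact permutation p = 0.2, adjusted 0.3) and Il4ra by 0.26 (exact permutation p = 0.4, adjusted 0.4), with overlap for both. Il2ra was lower by a log2 difference of -1.07 (exact permutation p = 0.3, adjusted 0.36), and here the groups overlapped: knockout 3, at -2.78, lay inside the control range of -3.31 to -2.30. These ratios share the Il2rg values and are not independent of one another, and probes differ in how well they bind, so a ratio says nothing about the number of molecules of each chain. The ratios do depend on the background correction and on quantile scaling. With normexp and quantile scaling, the difference was 0.68 for Il2rb and 0.62 for Il9r, and with normexp and the 75th percentile it was -0.51 for Il2ra. The direction was kept for all 6 genes with these settings, with quantile scaling and with the deposited values. Leaving out single arrays, the difference ranged from 1.55 to 2.05 for Il2rb, from 0.80 to 1.08 for Il9r, from 0.64 to 0.997 for Il21r and from 0.34 to 0.66 for Il15ra. It ranged from -1.62 (without knockout 3) to -0.79 for Il2ra and from 0.070 (without knockout 3) to 0.47 (without knockout 1) for Il4ra.

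**Figure D3:**
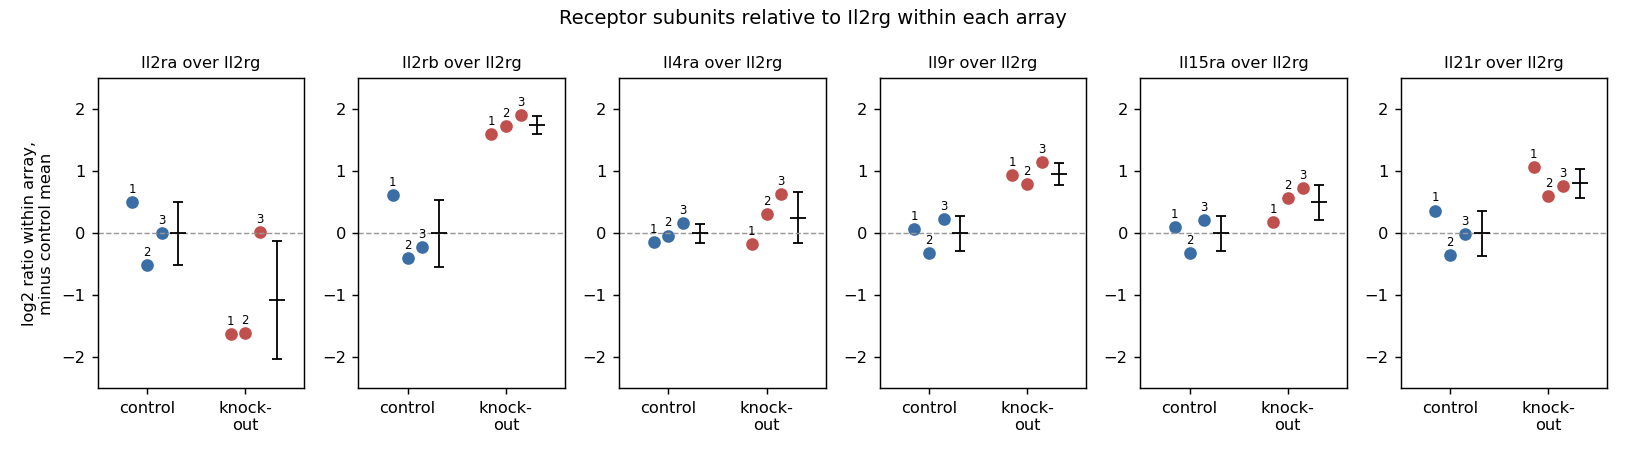
Log2 ratio of each private chain to Il2rg on the same array, minus the mean of the 3 control arrays (vertical axis, common to all panels), with points numbered by replicate and the mean ± SD of 3 arrays beside them. The knockout points lie above all control points for Il2rb, Il9r and Il21r, and for Il2ra the third knockout array lies among the controls.

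Il15ra, the chain that holds interleukin-15 at the cell surface and presents it to the beta and gamma chains of neighbouring cells, was read by a pair of probes. The brighter, at base 1277 of its RefSeq transcript (chr2:11655416-11655475, plus strand), gave 3.07, 3.17 and 3.41 in the control pools and 3.35, 3.44 and 3.43 in the knockout pools. The groups overlapped, with a log2 difference of 0.19 (95% interval -0.15 to 0.54, adjusted p = 0.404 in limma). The dimmer, at base 724 of another RefSeq transcript of the gene (chr2:11654809-11654868), gave -1.17, -0.74 and -0.88 against -0.59, -0.87 and -1.05. Its difference was 0.10 (adjusted p = 0.752 over all probes in limma). The differences of the probes were themselves -0.09 apart (exact permutation p = 0.5), and the interval of the brighter probe excluded a 2-fold change in either direction. The difference of the brighter probe was 0.39 with quantile scaling, 0.40 with normexp and quantile scaling and 0.37 with the deposited values, and the adjusted p of Il15ra ranged from 0.116 to 0.774 over the 19 alternatives. The Il15ra probes lie near that of Il2ra on chromosome 2, and the alpha chains of the receptors for interleukin-2 and interleukin-15 are related proteins.

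Il9r, the private chain for interleukin-9, was higher in the knockout on both of its probes, though by unlike amounts. The brighter probe, at base 1524, gave -0.33, -0.20 and 0.05 in the 3 controls and 0.74, 0.28 and 0.46 in the 3 knockouts. The groups did not overlap, with means of -0.16 ± 0.20 and 0.49 ± 0.23 (SD, n = 3 each). The log2 difference was 0.65 (95% interval 0.23 to 1.08), or 1.57-fold, with an adjusted p of 0.123 in limma. The dimmer probe, at base 3021, gave -2.92, -2.63 and -2.09 in the control pools and -0.68, -0.59 and -1.28 in the knockout pools. There the difference was 1.69, or 3.23-fold, with an adjusted p of 0.0786 over all probes in limma. The dimmer probe thus showed the larger difference, by 1.04 (exact permutation p = 0.1), from a position 1497 bases further along the transcript. With normexp, the brighter and dimmer probes gave 0.53 and 0.73 with quantile scaling and 0.50 and 1.07 with the 75th percentile. The size of the gap thus depends on the processing, and the part of probe position in it was not tested.

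The dimmer Il9r probe shares the limit of Il2rb. Its processed signal of 34.9, 40.9 and 64.0 in the 3 controls and 81.6, 44.1 and 66.4 in the 3 knockouts overlapped before scaling. Counted by probe, it made 3 of the 10 tested probes past the 2-fold threshold, with those of Il2ra and Il2rb, compared with 3.64% of all probes.

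Il21r encodes the private chain for interleukin-21, a cytokine of helper T cells that acts on B cells. Its relative log2 signal was 0.38, 0.18 and 0.23 in the control pools and 1.29, 0.52 and 0.50 in the knockout pools. The groups did not overlap, but knockout 1 stood well above the other two. The log2 difference was 0.50 (95% interval -0.05 to 1.06), or 1.42-fold, with an adjusted p of 0.222 in limma, and it was 0.25 without knockout 1. The probe reads chr7:132776725-132776784 on the plus strand from base 2247.

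Il4ra encodes the chain shared by the receptors for interleukin-4 and interleukin-13. Its brighter probe, near the end of the message at base 5027, gave 1.76, 2.38 and 2.28 in the 3 controls and 1.92, 2.10 and 2.24 in the 3 knockouts. The groups overlapped fully, with a log2 difference of -0.05 (95% interval -0.53 to 0.42, adjusted p = 0.878 in limma), and under 8 of 19 alternative settings the gene took the opposite sign. The dimmer probe, at base 466, gave -0.79, -0.83 and -0.46 against -0.54, -0.06 and 0.04. Here 2 knockout arrays lay above all controls and knockout 1 did not, and the difference was 0.51 (adjusted p = 0.190 over all probes in limma). The probes lie 4561 bases apart on the transcript, and their differences were themselves 0.56 apart (exact permutation p = 0.1). With normexp, the brighter and dimmer probes gave 0.10 and 0.36 with quantile scaling and -0.27 and 0.45 with the 75th percentile.

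The last 2 genes gave no value that could be compared. Il7r, the private chain for interleukin-7 and, with Crlf2, part of the receptor for thymic stromal lymphopoietin, was read at chr15:9435976-9436035 on the minus strand. Its probe was well above background on knockout 3 alone, with a processed signal of 22.5 ± 3.53 (the spot error), and its relative log2 signal there was -2.85. On the other 5 arrays it was not well above background. Il13ra1, read at chrX:33710154-33710213, was well above background on none of the 6 arrays, so only a bound on its level is known in either genotype.

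**Figure D4:**
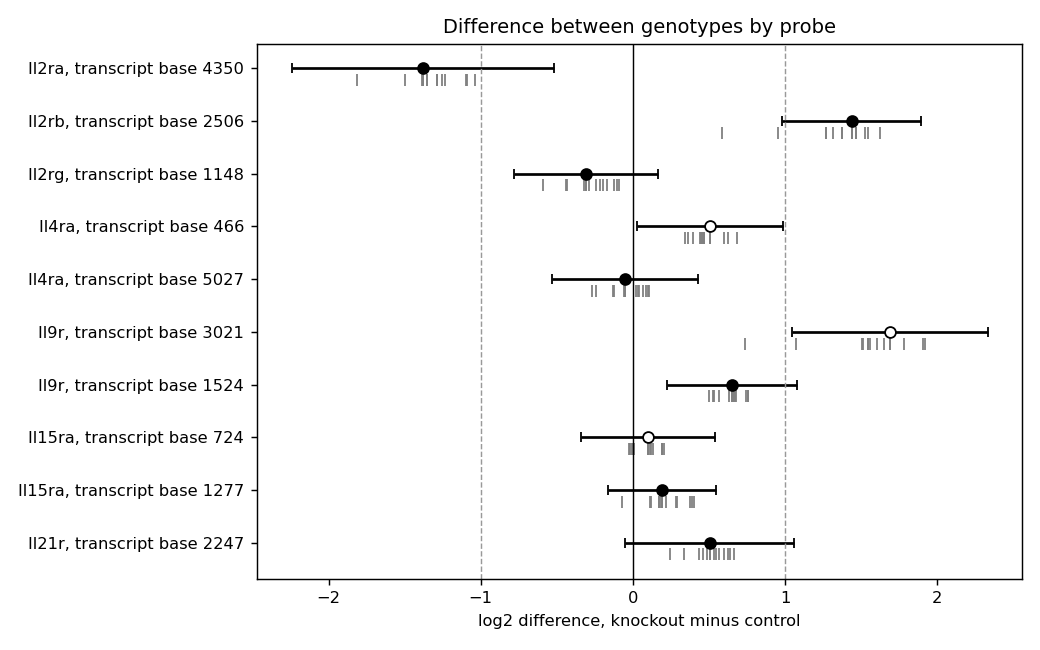
Log2 difference between genotypes, knockout minus control, with its 95% interval from the fit over all probes (horizontal axis), for the 10 tested probes, with filled points for the probe that stands for its gene and open points for the other. Grey ticks give the value under each alternative processing, and dashed lines mark 2-fold. The Il2ra and Il2rb points and the open Il9r point lie beyond the dashed lines.

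Transcripts of other lymphocytes bear on these receptors, since T cells and NK cells carry Il2rb and T cells carry Il7r. Of 17 T cell markers on the array, 11 were well above background on all 6 arrays and Bcl11b was on none. Of the 12 tested, 10 were higher in the knockout, compared with 39.8% of all genes. Lat, 1 of these 10, was tested only through the knockout arrays, so its place in this count is no support. Cd3d, Zap70 and Thy1, 3 of the 12, passed the 2-fold threshold with the unadjusted p of limma. Of all genes, 2.26% passed it and were higher in the knockout. The median log2 difference was 0.65, against -0.12 over all genes. The summed level of the list was 8.07 to 8.15 in the control and 7.81 to 8.26 in the knockout on the log2 scale, and most of it was Cd2, the marker with the highest mean, which differed by -0.15. Without Cd2, the sum was 4.10, 3.38 and 3.62 in the controls and 4.19, 3.996 and 4.35 in the knockouts, with knockout 2 below control 1 and the other two above all controls. Lck, the next brightest, differed by 0.48. Thy1 was at -1.57, -1.73 and 0.51 on knockout arrays 1 to 3, and Cd8a and Cd8b1 were well above background on knockout 3 alone, the same array as Il7r.

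Of 11 NK cell markers, 5 (Ncr1, Klrb1c, Klrd1, Klrk1 and Klra8) were well above background on no array, and 2 (Prf1 and Nkg7) on all 6. Each of the 3 tested had a higher mean in the knockout, compared with 39.8% of all genes. Gzma, well above background on 3 knockout and 2 control arrays, was tested only through the knockout arrays, so its place in this count is no support. Prf1 differed by 0.15. The summed level was 1.32 to 1.37 in the control and 1.67 to 2.49 in the knockout. Nkg7, the marker with the highest mean, was at 0.70, 0.87 and 0.84 on the control arrays and at 1.19, 2.10 and 2.12 on the knockout arrays. Its groups did not overlap, and its log2 difference was 1.00 (adjusted p = 0.120 in limma). The part of such cells in the Il2rb, Il9r and Il7r values was not tested.

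The cytokines that these receptors bind were mostly at background in the B1a cells themselves. Il2, Il4, Il13 and Il21 were well above background on no array, and Il7 on 1 array of each genotype. Il9 stood well above background on each of the 3 knockout arrays and on no control array. Its processed signal was 9.67, 7.35 and 4.97 in the control pools and 19.8, 30.02 and 20.4 in the knockout pools. The groups did not overlap before or after scaling, and the gene passed the filter on dim probes only through the knockout arrays, so no p is given. Taking each control array at its own lowest signal of a probe well above background, Il9 was at least 4.03-fold higher in the knockout after scaling and at least 1.72-fold before it. With normexp the fitted log2 difference was 1.03 with the 75th percentile and 0.49 with quantile scaling. Both values lay below the first of these bounds, and 0.49 also lay below the other. The bounds therefore hold only for the processed signals. Interleukin-9 is a product of mast cells, innate lymphoid cells and T cells. Of 10 mast cell and innate lymphoid markers, 2 were well above background on all 6 arrays and 2 (Gata3 and Rora) on none. Of the 4 tested, 1 was higher in the knockout, compared with 39.8% of all genes. Cpa3 and Mcpt4, which were lower, were tested only through the control arrays, so their place in this count is no support. The summed log2 level of the markers was 0.29 to 2.37 in the control and 0.60 to 1.01 in the knockout. The part of such cells in the Il9 values was not tested. Il15 was well above background on all 3 control arrays and on 2 of the knockout arrays, with a fitted log2 difference of 0.36 (adjusted p = 0.193 in limma).

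Of the receptor partners outside the 9 genes, Crlf2 was bright and differed by -0.17 (adjusted p = 0.445 in limma), and Il13ra2 was well above background on no array. The 7 kinases and STAT proteins examined below the receptors were all well above background on the 6 arrays. Of these, 3 were higher and 4 lower, with a median of -0.04, and none changed 2-fold. Stat5b, a main transducer of interleukin-2, gave 3.67, 3.40 and 3.55 against 3.16, 2.64 and 3.36, a difference of -0.49 without overlap (adjusted p = 0.202 in limma). Jak1, which binds the signalling partner of the gamma chain, differed by -0.04, and Jak3, which binds the gamma chain, by 0.39. Both overlapped between genotypes, as did Tyk2, Stat3, Stat5a and Stat6.

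Of 12 genes that these cytokines induce or that restrain them, 4 were higher and 8 lower, with a median of -0.14. None passed the 2-fold threshold. Cish, an inhibitor induced through STAT5, gave 3.89, 3.73 and 3.62 in the control pools and 2.67, 2.59 and 3.64 in the knockout pools. Socs2, another STAT5-induced inhibitor, gave 0.43, 0.17 and -0.12 against -1.07, -1.12 and 0.03. For both, knockout arrays 1 and 2 lay below all controls and knockout 3 lay among them, and the log2 differences were -0.78 and -0.88 (adjusted p = 0.164 and 0.168 in limma). Myc, a growth regulator, had the same order, 4.34, 4.12 and 4.28 against 3.73, 3.68 and 4.31. These 3 were named after their values were seen, and knockout 3 bears on far more genes: without it, 1149 of all genes passed the 2-fold thresholds in place of 644. Pim1, a survival kinase, went the other way, by 0.51 without overlap (adjusted p = 0.150 in limma).

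**Figure D5:**
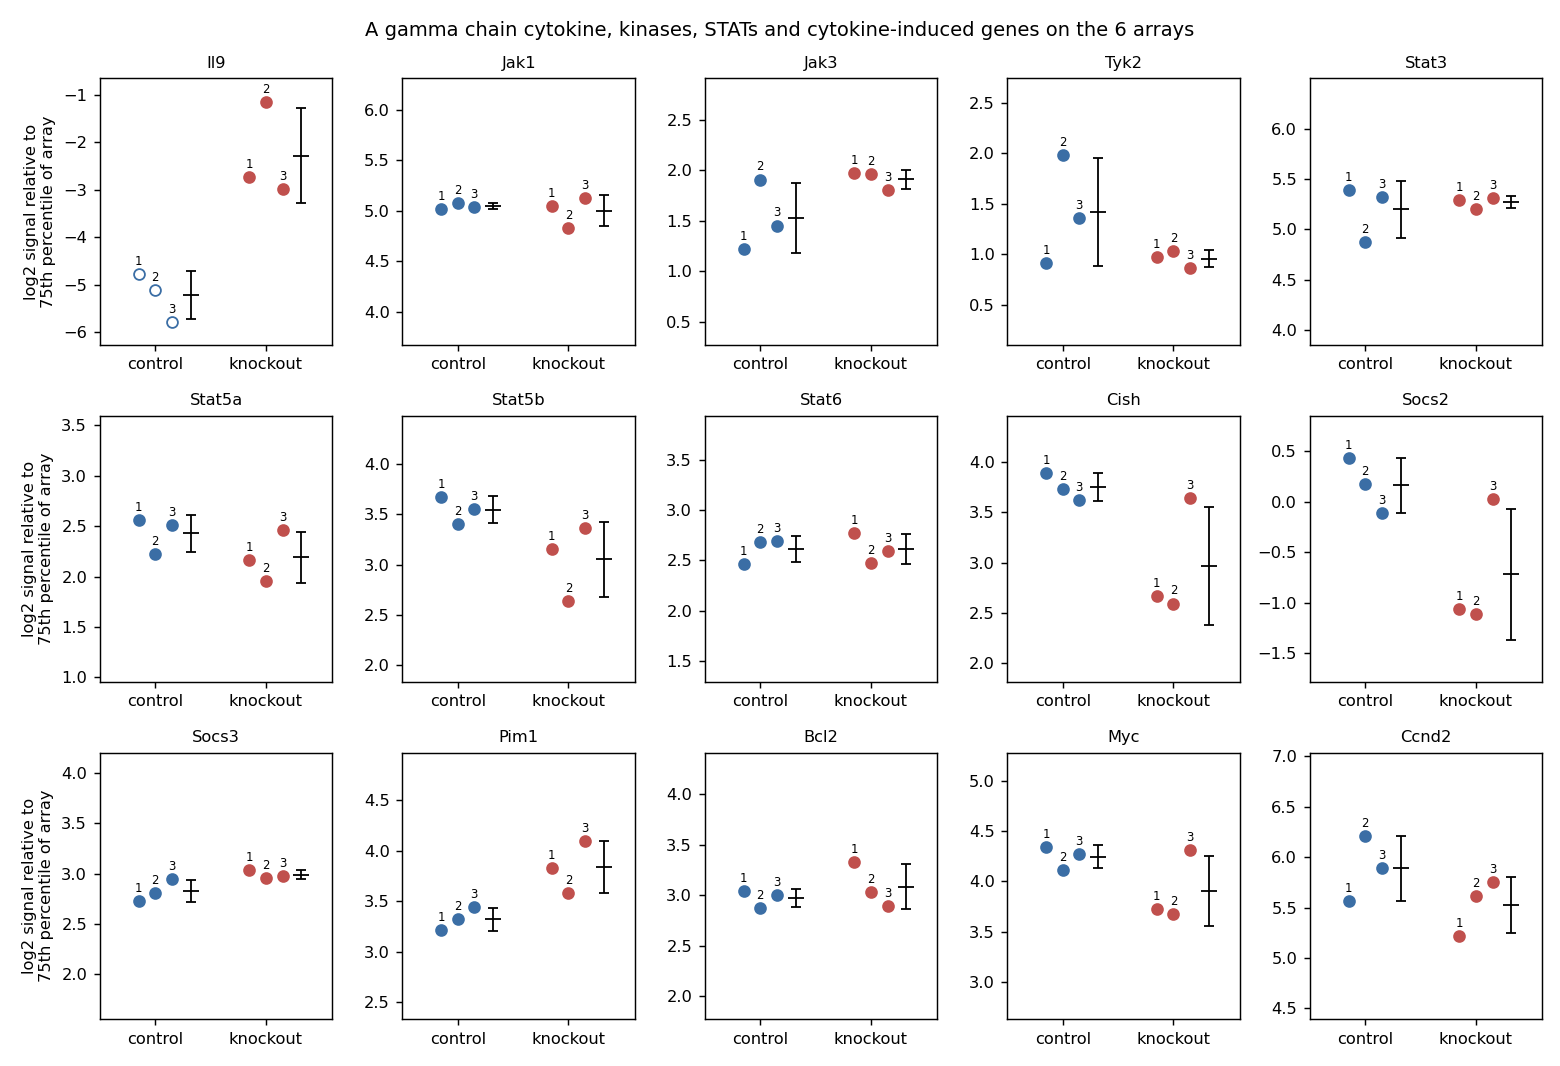
Log2 signal relative to the 75th percentile of the array (vertical axis, with a range that differs between panels) for Il9, the 7 kinases and STAT genes and 7 of the 12 cytokine-induced genes, drawn as in the plot of every probe. The Il9 points of the control arrays are open because they were not well above background, and Cish, Socs2 and Myc have knockout 3 at the level of the controls.

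Likeness over the 6 arrays was described for 3 of the receptors, as Pearson's r across the 9679 genes that have a RefSeq symbol and are well above background on every array. The arrays form 2 groups, so a gene that differs between them scores high, and no test was made. The pattern of Il2ra was closest to Vps29 (r = 0.997), Ssbp4 (r = 0.997) and Anapc5 (r = 0.996), and 1488 genes had an r over 0.9 with it. The pattern of Il2rb was closest to Rgs12 (r = 0.996), 9530036O11Rik (r = 0.991) and Nlrp1a (r = 0.989), among 222 such genes. That of Il21r was closest to Bcl2a1c (r = 0.994), Gm8369 (r = 0.992) and Mpeg1 (r = 0.989), among 49. Rgs12 itself was 1.61 higher on the log2 scale in the knockout, and the log2 difference of Vps29 was -0.40.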

How the data were processed

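Cy3-labelled RNA of sorted PC B1a cells was measured on Agilent mouse arrays in 1 colour, 3 per genotype. The authors read them with Agilent Feature Extraction 10.7.1.1, and the deposited intensity of each spot is its background-subtracted, detrended processed signal, not scaled between arrays. The authors also deposited a table of log2 values, which are quantile normalized as far as the values show (sorted columns differ by at most 0.000545) and were used as an alternative.

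From the 59305 non-control spots per array, the log2 processed signal was set relative to its array's 75th percentile, outlier spots were dropped and repeated spots of 1 probe were averaged. Testing required a signal well above background on the 3 arrays of either genotype and a measurement on 2 or more arrays of both (24753 probes). A gene was represented by its brightest tested probe (18254 genes), and all probes were also fitted on their own. The difference between genotypes was fitted with limma 3.58.1 (lmFit, eBayes; R 4.3.3), with no covariate and with Benjamini-Hochberg adjustment over all genes or probes. The fit was tested on simulated data in which 200 genes were changed. Other backgrounds, scalings, filters, probe rules, tests and array sets were tried as alternatives. Precision is limited by the 3 arrays of a genotype, and no spot was saturated.

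The 9 genes, the pathway lists and the marker lists were chosen with earlier results of these data known. The genes named are all 9 with every probe, the pathway genes without overlap and with at least a 1.5-fold change, the brightest T and NK cell markers, and the 3 genes most like Il2ra, Il2rb and Il21r; other genes were named after their values were seen. Gene names and mm9 coordinates are those of the array files. The replicate numbers were checked as pairs. The deviations of same-numbered arrays correlated at 0.19, 0.06 and 0.09, and those of other pairs at -0.19 to 0.07. With 3 arrays per genotype, these values cannot show whether a shared day or litter pairs the arrays, and the main fit used no pairs. Some genes of these lists are not reported here.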

Additional observations from a re-analysis of the deposited data

How the results depend on the processing

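Over 19 alternatives, Il2ra kept its direction (-1.82 to -1.04) and stayed 2-fold lower, and Il2rb kept its direction (0.58 to 1.62) and passed 2-fold in 17. Its exceptions were the 2 settings with normexp, a model-based background correction, and an offset of 50. Il9r (0.50 to 1.17), Il21r (0.25 to 0.75) and Il2rg (-0.59 to -0.09) also kept their direction. An adjusted p under 0.05 was reached by none of the 7 genes in the main setting and by the methods' t-test, by 4 with normexp and the 75th percentile (6444 of all 18254 genes) or with no scaling (13697), by 3 with array weights (1493), and by 1 each with a signal required on all 6 arrays (26 of 15690), with trended robust variances (754) and without knockout 3 (112). The count of genes past the 2-fold threshold was 2, and it was 1 with normexp and either quantile or 75th percentile scaling and 3 when probes of a gene were averaged, which added Il9r. The count of probes was 3, 1 with normexp and quantile scaling and 2 with normexp and the 75th percentile. The count of the pathway lists was 1 (Il9, at background in the controls and tested only through the knockout arrays, so that this count is no support), and 0 with normexp and quantile scaling or when a signal on all 6 arrays was required, 2 with normexp and the 75th percentile, 6 with no filter, and 1 to 3 when arrays were left out.

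Il4ra took the opposite sign with quantile scaling (0.10), normexp and quantile scaling (0.10), median scaling (0.040), the deposited log2 values (0.087) and the mean of its probes (0.23), and when single arrays were left out (-0.24 to 0.067, with control 2, control 3 and knockout 1 turning it). Il15ra did with normexp and the 75th percentile (-0.071), and its dimmer probe with normexp and quantile scaling (-0.0043) and when control 1 or knockout 1 was left out (-0.026 to 0.20 over the single arrays).

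No scaling, an alternative chosen after the data were seen, put the median of all genes at -1.34, against -0.12 in the main setting. The counts became 4 genes, 5 probes and 18 pathway genes, and the signs turned for Il9r (-0.57), Il15ra (-1.04, dimmer probe -1.13), Il21r (-0.72) and the dimmer Il4ra probe (-0.72). Over all genes the 2-fold count of 644 became 162 and 190 with normexp, 10640 with no filter, 13646 with no scaling and 1149 without knockout 3, and 64.0% of those genes were higher in the main setting, 46.0% with quantile scaling, 80.9% with normexp and quantile scaling, 76.9% with median scaling, 44.6% with the deposited values, 97.6% with no filter, 82.3% with a signal on all 6 arrays, 50.1% with array weights, 52.8% without knockout 2 and 0.198% with no scaling. With the replicate number as a block, the counts stayed at 2 genes and, in the pathway lists, 1 (again with the limit above).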
